A study of Mus musculus with 6 samples.

Results

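The comparison described here set the induced culture of day 5 against the untreated culture of day 4, a pairing that asks how far induced cells on day 5 look like untreated cells sampled 1 day earlier. It used 2 of the 6 arrays of the series, chosen by treatment and day, and the other 4 arrays served to place each level. All cells were A2.miR200c cells, a mouse embryonic stem (ES) cell line in which doxycycline switches on the cluster that encodes miR-200c and miR-141. The line was made by Cre-mediated exchange into A2lox cells, so every culture carries the same inserted cassette. They were grown as embryoid bodies in Petri dishes at 15000 cells per mL in medium with 10% fetal calf serum, and RNA was taken on days 3, 4 and 5. Induced cultures received doxycycline at 500 ng/mL on days 2 and 4, so the induced day 5 culture had received it on both days, and untreated cultures received none. Each treatment and day had 1 array, and a doxycycline-treated line without the microRNAs was not analysed here, so an effect of the drug cannot be told apart from that of the microRNAs.

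The miR-200 family is known for holding cells in an epithelial state, in large part by lowering Zeb1 and Zeb2, a pair of repressors of E-cadherin. As ES cells differentiate in embryoid bodies they lose the pluripotency network, pass through a state like the epiblast, and then, in an epithelial-to-mesenchymal transition, give rise to mesoderm and endoderm. A plain delay would leave induced cells at levels that untreated cells show on an earlier day. Each gene 2-fold or more apart was therefore placed by whether its induced day 5 level lay inside or outside the range of the 3 untreated levels.

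The mature sequences of both induced microRNAs are shown because they are the molecules the cell line adds. They lie on the minus strand of chromosome 6, miR-200c-3p at chr6:124718324-124718346 and miR-141-3p at chr6:124717917-124717938 (GRCm38.p6, RefSeq). Capitals mark the seed, bases 2 to 8, which differs between them at 1 position.
mmu-miR-200c-3p: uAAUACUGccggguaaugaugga
mmu-miR-141-3p: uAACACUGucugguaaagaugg

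Of 9997 genes tested, 136 were at least 2-fold higher on induced day 5 than on untreated day 4 (1.36%) and 33 were at least 2-fold lower (0.33%). These are differences of log2(intensity + 50) between single arrays, so they carry no error and no test. The median difference over all tested genes was 0.02, with a standard deviation across genes of 0.34. The higher genes included keratins and other epithelial genes, genes of anterior endoderm, and a set of interferon-induced genes that all stood above every untreated level. Of the 33 lower genes, 24 had an induced day 5 level between those of untreated days 4 and 5. The naive ES cell, core pluripotency and primitive ectoderm lists, with 13, 10 and 8 of the tested genes, held 5 of the 33. On day 3, the induced and untreated arrays had 2 genes 2-fold apart either way (0.02%), Hprt and Sbsn. Those cultures differed in doxycycline and were of the same day, so their difference is no measure of error for the comparison described here.

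**Figure D1:**
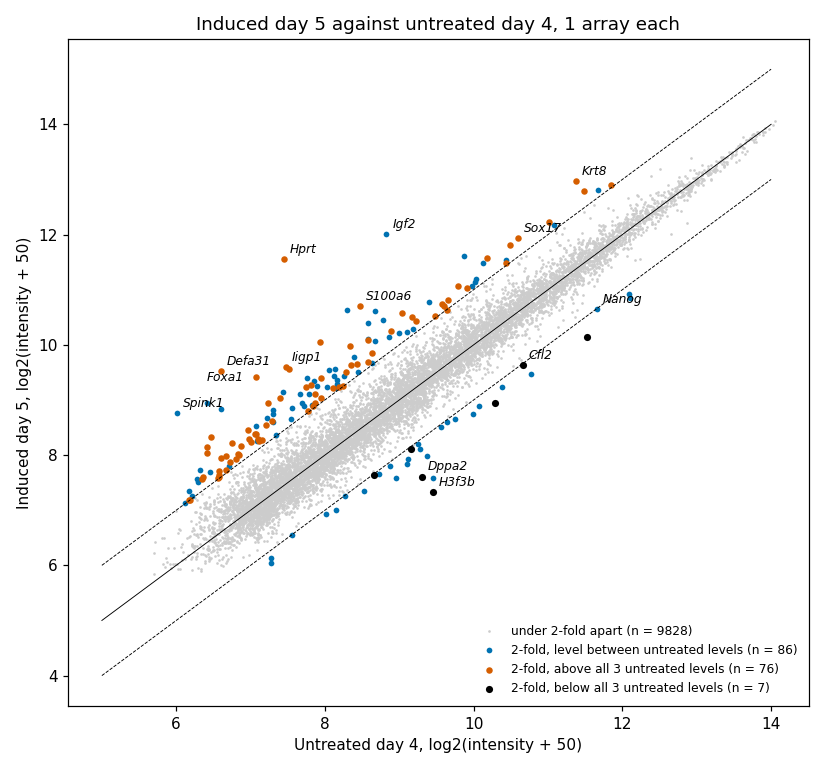
Each point is 1 of the 9997 tested genes, with log2(intensity + 50) on the untreated day 4 array on the horizontal axis and on the induced day 5 array on the vertical axis. The solid line marks equal levels and the dashed lines 2-fold; orange points (76 genes) lie above all 3 untreated levels, black points (7 genes) below them, and blue points (86 genes) between them.

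The position of the induced day 5 level divided the 169 genes into 83 outside the untreated range and 86 inside it. Among the 136 higher genes, 24 were at least 2-fold above the highest of the 3 untreated levels and 52 were above it by less. A further 59 lay between untreated days 4 and 5, as a delay of less than 1 day would place them. Only Tmem30b lay between untreated days 3 and 4. Among the 33 lower genes, Cfl2 was at least 2-fold below all 3 untreated levels and 6 were below them by less, 24 lay between untreated days 4 and 5, and Actc1 and Etv2 lay between days 3 and 4. Over all tested genes, whatever the size of their difference, induced day 5 was above all 3 untreated levels for 23.7% and below all 3 for 20%. Of the 76 genes above the range, 57 were also higher on untreated day 5 than on untreated day 4, and 19 were lower there. The threshold parts close neighbours: Abcc1 and Parm1 lay just inside it on the high side with log2 differences of 1.0003 and 1.0004, and Patj (0.999) and Zkscan3 (0.998) just outside, while on the low side Ptn (-1.003) and Nanog (-1.01) lay inside and Pgap1 (-0.999) and Nrcam (-0.98) outside.

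Hprt, which encodes an enzyme of purine salvage, had the largest difference of any tested gene. It (Entrez Gene 15452) read 234, 125 and 102 on untreated days 3, 4 and 5 and 1671, 2539 and 2977 on the induced days. Every induced array was thus above every untreated array, and induced day 5 was 17.3-fold above untreated day 4 (log2 4.11). As background, the exchange cassette of A2lox cells sits next to Hprt, and its part in the reading was not tested. The other 9 housekeeping genes tested had differences from -0.35 for Tbp to 0.76 for B2m, and the median of the list was 0.02.

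Epithelial genes formed 1 of the 2 lists with the most 2-fold members by count, and the list with the most genes tested. By share, 21.1% were 2-fold higher. That was below the germ cell (44.4%), anterior streak and endoderm (31.25%), cardiac (28.6%), interferon (25%) and BMP response (21.4%) lists. Of 38 tested, 8 were at least 2-fold higher on induced day 5 and 0 were lower, against 1.36% higher among all genes. A positive difference was seen in 35 of 38, against 52.9% of all genes. The median was 0.59 against untreated day 4 and 1.15 against untreated day 5. The induced day 5 level exceeded all 3 untreated levels in 27 of 38, compared with 23.7% of all genes.

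Krt8 and Krt18 encode the paired keratins of simple epithelia. Krt8 read 767, 2604 and 7013 on untreated days 3, 4 and 5 and 1068, 3330 and 8004 on the induced days. Krt18 read 1755, 2825 and 6278 untreated and 2433, 3991 and 7029 induced. Both were higher with time in either treatment and higher induced than untreated on each day, and induced day 5 was above untreated day 4 by 1.60 and 1.30 on the log2 scale. Krt19, a further keratin of simple epithelia, read 181, 831 and 1051 untreated and 245, 1300 and 2104 induced. Its induced day 5 level was 2.44-fold above untreated day 4 and 0.97 on the log2 scale above the highest untreated level. The 3 probe sets of Krt8 gave like differences, whereas Krt19 was read by a single probe set.

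Desmosomes, the junctions that anchor keratin filaments, were represented by Dsp (desmoplakin) and Dsc2 (desmocollin 2). Dsp read 477, 2011 and 3047 on the untreated arrays and 739, 2105 and 4755 on the induced ones. Dsc2 read 56.3, 98.1 and 86.8 untreated and 76.8, 169 and 324 induced, which placed induced day 5 at 2.52-fold above the highest untreated level, that of day 4. A second Dsc2 probe set gave a log2 difference of 0.58. Desmoglein 2 (Dsg2), named after its values were seen, stood at 0.64.

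Among other epithelial genes, Ap1m2, Cldn4 and Cldn6 were lower with time untreated and higher with time when induced. Ap1m2 and Cldn4 were named after their values were seen. Ap1m2, a sorting adaptor subunit of epithelial cells, read 452, 345 and 146 untreated and 563, 798 and 878 induced. The tight junction gene Cldn4 read 111, 62.2 and 41.0 untreated and 118, 156 and 194 induced. Cldn6, another claudin, read 1121, 1072 and 734 untreated and 1351, 1822 and 2175 induced, a log2 difference of 0.99 that fell just short of 2-fold. In each of the 3, untreated day 5 was the lowest array and induced day 5 the highest. Tmem30b, a flippase subunit, was lower with time in both treatments, with 319, 112 and 40.8 untreated against 418, 367 and 278 induced, so its level lay between untreated days 3 and 4.

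E-cadherin (Cdh1) itself, the adhesion molecule of epithelia, stood level with untreated day 4. It read 7232, 7458 and 3963 untreated and 7725, 8596 and 7720 induced, a difference of 0.05. Epcam stood at 0.24 and the splicing factor gene Esrp1 at 0.44, both named after their values were seen. Several epiblast genes that the study follows were also near untreated day 4: Nodal stood at -0.14, Fgf5 at -0.02, Otx2 at -0.06 and Zic5 at -0.16. Fgf5, a growth factor gene of the epiblast, read 1265, 2746 and 499 untreated and 1236, 2833 and 2715 induced, so induced day 5 matched untreated day 4 within 0.02. Others that the study follows were not level with it, with Cldn6 at 0.99, Cer1 at 1.12 and Sox17 at 1.34.

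**Figure D2:**
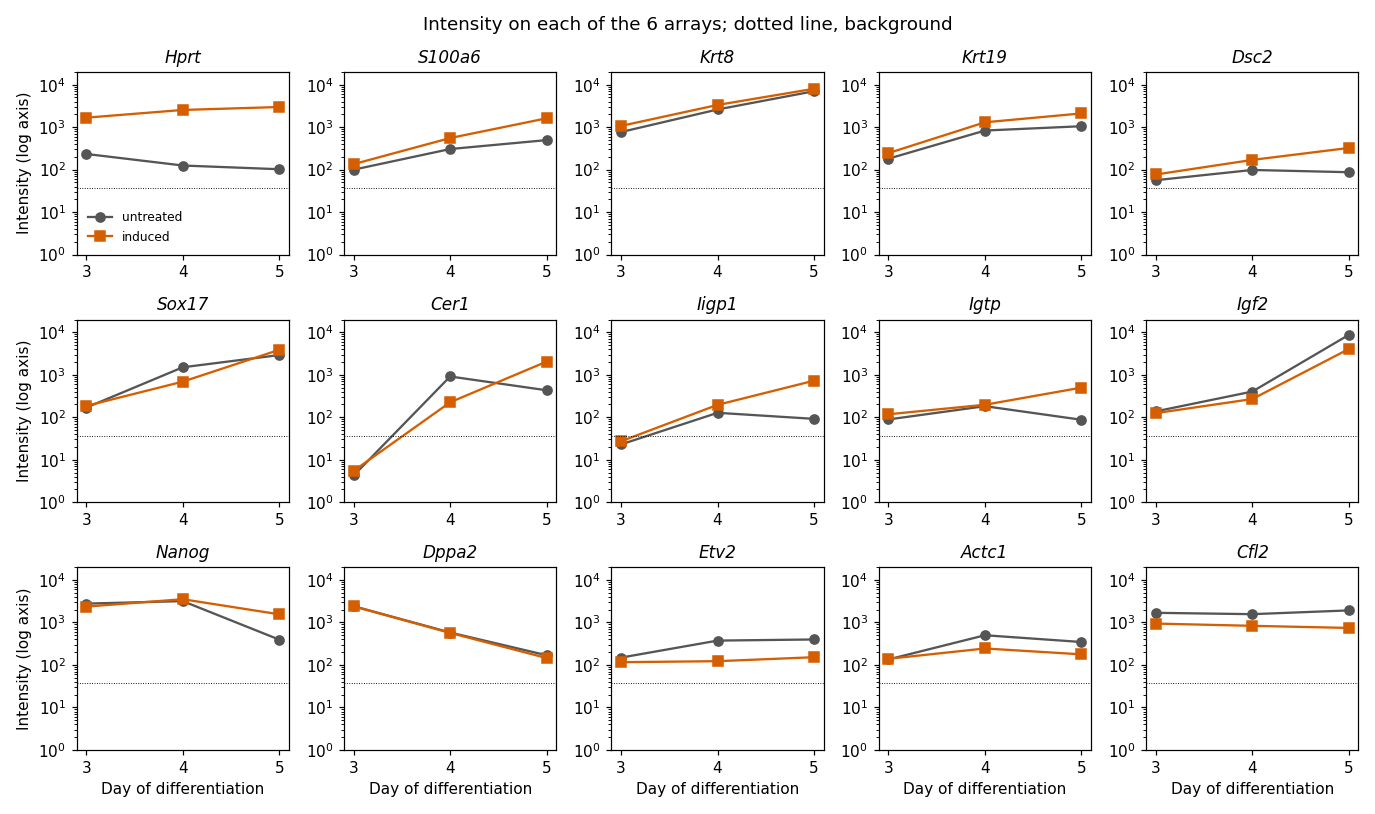
Intensity of 15 genes on each of the 6 arrays, day of differentiation on the horizontal axis and intensity on a log axis, with untreated cultures as grey circles and induced cultures as orange squares (1 array a point); the dotted line is the background of 36.7. Hprt, S100a6, Dsc2, Cer1, Iigp1 and Igtp end above every untreated point, Igf2 and Nanog end between untreated days 4 and 5, and Cfl2 ends below every untreated point.

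Of 16 genes of the anterior primitive streak and endoderm tested, 5 were at least 2-fold higher, against 1.36% of all genes, and 0 were lower. The median was 0.56, with 11 differences positive and 5 negative (68.75% positive, against 52.9% of all genes). Of the 5 that were 2-fold higher, only Cxcr4 lay inside the untreated range. Foxa1, a pioneer transcription factor of endoderm, read 47.0, 84.7 and 270 untreated and 48.7, 78.3 and 637 induced. Its induced level stayed with the untreated level up to day 4 and was 5.10-fold above untreated day 4 on day 5.

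Cer1 (Cerberus), a secreted inhibitor of Nodal, BMP and Wnt ligands, had its highest untreated level on day 4. It read 4.26, 913 and 432 untreated and 5.48, 226 and 2046 induced, which was 2.18-fold above untreated day 4. Sox17, a transcription factor of definitive endoderm, read 169, 1502 and 2914 untreated and 185, 690 and 3875 induced. Dkk1, a secreted Wnt inhibitor, read 62.8, 1106 and 2688 untreated and 51.8, 451 and 3015 induced. Cer1, Sox17 and Dkk1 were all lower induced than untreated on day 4 and above all untreated levels on day 5. A second probe set gave a like difference for each, 1.13 for Cer1, 1.96 for Sox17 and 1.35 for Dkk1.

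Not all genes of this list behaved so. Foxa2 stood at 0.42. Gsc, Lhx1, Mixl1 and Eomes, transcription factors of the streak named after their values were seen, stood at 0.70, 0.18, -0.10 and -0.15. In the Nodal pathway list, 2 of 17 were higher and 1 lower, against 1.36% and 0.33% of all genes, with a median of 0.05. The coreceptor gene Cfc1 read 264 on untreated day 4, 2431 on untreated day 5 and 1540 on induced day 5, inside the range. The ligand gene Gdf3 was lower by 1.17 on the log2 scale, and at 114 it was near the untreated day 5 level of 99.4. A second Gdf3 probe set gave a smaller log2 difference of -0.28.

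Interferon-induced genes were gathered into a list of 47 after it was seen that several of the genes furthest above the untreated range belong to that response, so their count is a description and supports nothing. Of the 32 tested, 8 were at least 2-fold higher, against 1.36% of all genes, and 0 lower. All 8 were above every untreated level: Iigp1, Usp18, Irgm2, Igtp, Rtp4, Oasl2, Cd274 and Ifi27l2a. The median of the 32 was 0.58 against untreated day 4, and the induced day 5 level exceeded all untreated levels in 27 of them. The untreated levels of this list had a median difference of -0.39 between days 4 and 5.

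Iigp1, Igtp and Irgm2 encode immunity-related GTPases that are induced by interferon gamma and act on the vacuoles of intracellular parasites. Iigp1 read 23.0, 127 and 91.8 untreated and 27.2, 196 and 727 induced, and a second probe set gave a log2 difference of 1.45 beside the 2.13 of the first. Igtp read 89.0, 182 and 87.3 untreated and 118, 197 and 499 induced. Irgm2 read 15.6, 75.7 and 42.2 untreated and 16.6, 95.6 and 265 induced. In all 3, untreated day 4 was the highest untreated array, and the treatments lay furthest apart on day 5.

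Usp18, a protease that removes ISG15 from proteins, read 8.17, 35.1 and 67.8 untreated and 5.60, 27.8 and 232 induced. Rtp4 was 2.34-fold, Oasl2 2.20-fold, Ifi27l2a 2.04-fold and Cd274, which encodes the checkpoint ligand PD-L1, 2.03-fold above untreated day 4. Usp18, Rtp4 and Cd274 were below background on untreated day 4, so the sizes of their differences depend on the pseudocount. Members that were not higher were Rsad2, an antiviral enzyme gene, at -0.72, the RNA sensor gene Ddx58 at -0.59 and the proteasome subunit gene Psmb9 at -0.07. Irf1, a transcription factor of this response, read 2352 on untreated day 4, 899 on untreated day 5 and 2363 on induced day 5. The source of these differences was not tested.

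Promoters could be searched for 4 of the interferon genes that were 2-fold higher. Those of the neighbouring Igtp and Irgm2 are shown because they held the match marked below. Each runs from 250 bases before the start of the gene to 50 after it on the plus strand of chromosome 11, at chr11:58199306-58199605 for Igtp and chr11:58214727-58215026 for Irgm2 (GRCm38.p6). Capitals mark the only match to GAAANNGAAA, the core of the interferon-stimulated response element, searched on both strands.
Igtp: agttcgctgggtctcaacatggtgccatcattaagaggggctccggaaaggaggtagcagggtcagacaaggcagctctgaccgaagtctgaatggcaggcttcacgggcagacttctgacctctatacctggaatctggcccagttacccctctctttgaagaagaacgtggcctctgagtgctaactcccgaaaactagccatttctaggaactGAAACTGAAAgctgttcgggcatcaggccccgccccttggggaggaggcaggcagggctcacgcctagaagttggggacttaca
Irgm2: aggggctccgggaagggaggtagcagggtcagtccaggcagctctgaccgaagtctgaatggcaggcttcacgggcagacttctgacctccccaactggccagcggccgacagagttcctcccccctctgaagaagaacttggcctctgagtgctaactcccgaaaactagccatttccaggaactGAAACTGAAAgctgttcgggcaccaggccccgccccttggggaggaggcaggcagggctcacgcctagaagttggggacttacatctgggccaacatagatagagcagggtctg

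The match was present in 3.99% of all 27025 promoters of the table and in 3.31% of the 8161 tested genes with an entry. Among the 76 genes higher and above the untreated range, 59 had an entry and 6 held the match: Fosl2, Foxa1, Ifitm3, Igtp, Irgm2 and Serpinb9. Cd274 and Oasl2, the other 2-fold interferon genes with an entry, held none in this window. Thus 2 of the 4 2-fold interferon genes with an entry held the match (50%), near the 12 of 25 (48%) among all tested interferon genes with one. A match is a run of letters, not evidence of binding.

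**Figure D3:**
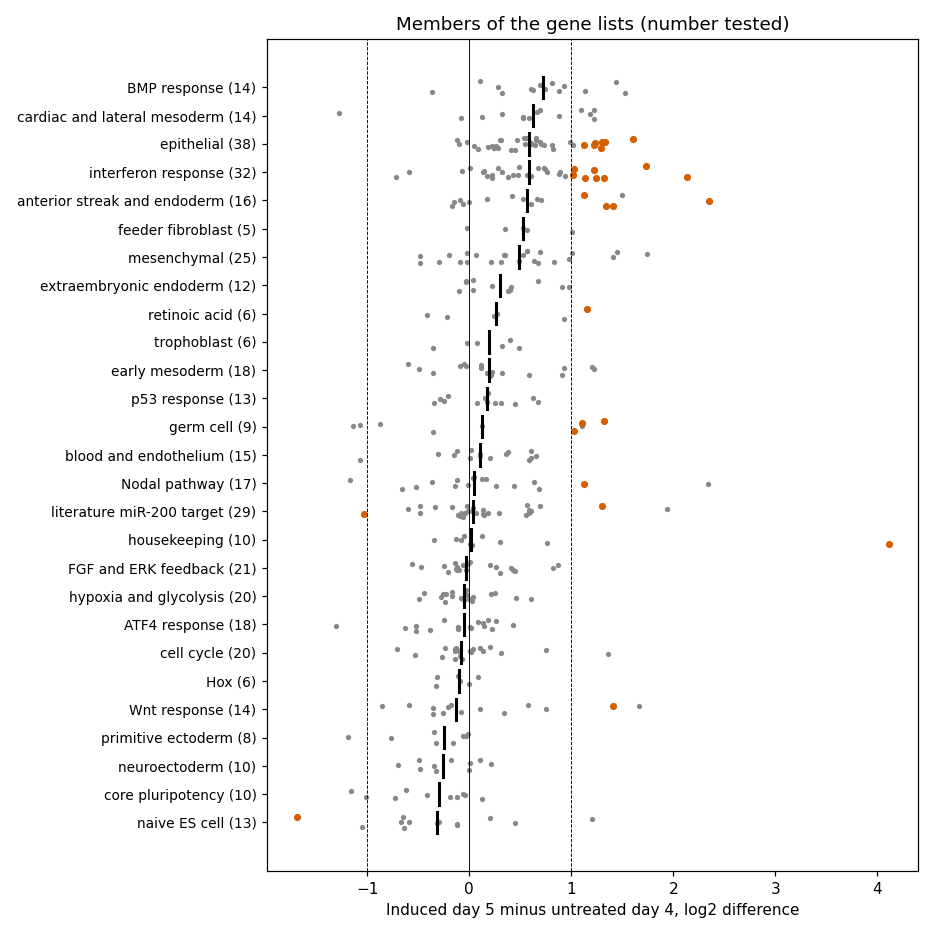
Log2 difference between induced day 5 and untreated day 4 for every tested member of the 27 gene lists, each point 1 gene, with the number tested in brackets and the list median as a black bar. Dashed lines mark 2-fold and orange points are genes 2-fold apart whose induced day 5 level is outside all 3 untreated levels. These points are most numerous in the epithelial and interferon lists, with medians of 0.59 and 0.58 and the most genes tested (38 and 32). The interferon list was gathered after several genes far above the untreated range were seen to belong to it. Its count is a description only.

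Further genes well above the untreated range belonged to no list. S100a6, a small calcium-binding protein gene, read 99.7, 305 and 495 untreated and 135, 554 and 1615 induced, 4.69-fold above untreated day 4. Alox15, a lipoxygenase gene, read 33.7, 334 and 162 untreated and 49.5, 472 and 1041 induced. Dgkk, a diacylglycerol kinase gene, read 56.9, 473 and 609 untreated and 74.3, 246 and 1475 induced. S100a6 and Alox15 were above the untreated level on each day, whereas Dgkk was below it on day 4.

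The membrane protease gene Tmprss2 read 38.4 on untreated day 4 and 271 on induced day 5, and Tmc4, of the transmembrane channel-like family, read 101 and 445. Neat1, the RNA scaffold of nuclear paraspeckles, read 195 and 1006, but its second probe set gave a log2 difference of -0.08. Defa31, a defensin gene, read 46.8 and 684 with an untreated day 5 level of 226, by a probe set of the type that may read several family members. Ldhb, a lactate dehydrogenase subunit gene, and Anxa1, an annexin gene, both named after their values were seen, stood at 1.04 and 1.09. For Ldhb, which read 1240, 1338 and 1041 untreated and 1380, 2648 and 2812 induced, all 4 probe sets gave differences between 0.96 and 1.14.

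Above the range by less than 2-fold were Kit and Kitl, a receptor and its ligand, and Flt1, a receptor for VEGF. Kit read 169 on untreated day 4, 208 on untreated day 5 and 397 on induced day 5, and Kitl read 164, 459 and 552 on the same arrays. Flt1 read 275, 436 and 749. Prdm1, a transcription factor of primordial germ cells, read 83.4, 124 and 283, and Ifitm3, which marks early germ cells and is also induced by interferon, 727, 883 and 1623. Of the 9 germ cell genes tested, 4 were higher and 2 lower, against 1.36% and 0.33% of all genes. The lower ones were Mael and Ddx4.

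Of the 59 higher genes between untreated days 4 and 5, 12 were members of the early mesoderm, cardiac, mesenchymal and BMP response lists. Those lists held 18, 14, 25 and 14 of the 9997 tested genes. The growth factor gene Igf2 read 138, 404 and 8723 untreated and 125, 269 and 4053 induced, so induced day 5 was 9.05-fold above untreated day 4 yet under untreated day 5. Spink1 (14.2, 896 and 385 on untreated day 4, untreated day 5 and induced day 5) and Capn6 (35.3, 961 and 444) had the same order. Tnnc1, a troponin gene of heart muscle, read 47.6, 469 and 405.

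None of the mesenchymal, BMP or cardiac genes that were 2-fold higher exceeded the untreated range. The counts below stand beside 1.36% of all genes 2-fold higher and 0.33% lower. In the mesenchymal list 4 of 25 were higher, Pmp22 (log2 1.74), Col5a1 (1.44), Snai2 (1.41) and Col1a1 (1.01), with a median of 0.49. With the mean of probe sets Col5a1 (0.91) and Col1a1 (0.75) fell short of 2-fold. Snai2, a repressor of epithelial genes, read 29.9 on untreated day 4, 1304 on untreated day 5 and 162 on induced day 5. In the BMP response list 3 of 14 were higher, the BMP target genes Msx2 (1.53), Smad6 (1.44) and Bambi (1.13), with a median of 0.72. In the cardiac and lateral mesoderm list 4 of 14 were higher, among them Foxf1 (1.22), Myl7 (1.23) and Bmp5 (1.18), and Actc1 was lower. Foxf1 was at 28.1 on untreated day 4, 1172 on untreated day 5 and 132 on induced day 5. A second Foxf1 probe set above background gave a log2 difference of -0.096. Foxf1, Bmp5, Snai2 and Col1a1 were below background on untreated day 4, and Myl7 was just above it. The sizes of their differences therefore depend on the pseudocount.

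Col1a1 is also a marker of fibroblasts, on which the ES cells had been grown before differentiation. Of 5 feeder fibroblast genes tested, 1 was 2-fold higher (Col1a1), the median was 0.53, and on induced day 5 Postn, with 24.8, and Twist2, with 29.5, were below background. The part of feeder cells in the result was not tested. On whole embryoid bodies, more cells of a type and more RNA per cell cannot be told apart, here or for any list.

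The blood and endothelial list was, in its median, near untreated day 4. Of 15 tested, 0 were 2-fold higher, against 1.36% of all genes, and Etv2 was lower. The median was 0.11, against 1.46 for untreated day 5 minus untreated day 4. The receptor genes Flt1 (1.30) and Nrp1 (1.94), both 2-fold higher, were counted in the literature target list. Etv2, the transcription factor that specifies blood and endothelium, read 149, 374 and 398 untreated and 116, 123 and 152 induced, so induced day 5 was at the untreated day 3 level. Tal1, a factor of blood formation, read 24.9, 389 and 30.4 on untreated day 4, untreated day 5 and induced day 5. Embryonic globin Hbb-bh1 read 7.32, 1600 and 40.0 on the same arrays. Hbb-bh1, Tal1, Ctla2a and Runx1 were below background on untreated day 4, so the pseudocount keeps their differences small. Actc1, cardiac actin, resembled Etv2, with 135, 500 and 347 untreated and 139, 244 and 177 induced.

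Of the 33 lower genes, 5 were members of the ES cell and epiblast lists (13, 10 and 8 of the 9997 tested genes). Most of the others were in no list. Cxcl12, a chemokine gene, read 654 on untreated day 4, 80.7 on untreated day 5 and 141 on induced day 5. Of 10 core pluripotency genes, 2 were 2-fold lower, L1td1 (-1.16) and Nanog (-1.01), against 0.33% of all genes. A negative difference was seen in 9, against 4703 of all 9997 tested genes, and the median was -0.30. Nanog read 2777, 3181 and 394 untreated and 2363, 3523 and 1555 induced. Pou5f1 (-0.62) and Sox2 (-0.41) were lower by less. Of 8 primitive ectoderm genes all had a negative difference, and Pou3f1, a POU factor of the epiblast, passed 2-fold at -1.19. In Nanog, L1td1, Pou5f1, Sox2 and Pou3f1 induced day 5 was below untreated day 4 and above untreated day 5.

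Some naive ES cell genes were as low on induced day 5 as on untreated day 5. Dppa2 read 2417, 580 and 169 untreated and 2388, 567 and 145 induced, the same course in both treatments, so that it was 3.23-fold below untreated day 4. Dppa4 read 1982, 708 and 251 untreated and 2360, 877 and 315 induced. Zfp42 (Rex1) stood at -0.67. The naive list had 2 of 13 lower, against 0.33% of all genes, with a median of -0.32. Tbx3, which is also a mesoderm gene, was higher at 1.21. Dppa2 and Dppa4 on induced day 5 were thus near untreated day 5, whereas Fgf5 and Nodal were at untreated day 4.

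Of the 7 genes below every untreated level, Cfl2 was the furthest. It encodes cofilin 2, an actin-severing protein held in the literature to be a target of the miR-200 family, and read 1686, 1568 and 1922 untreated and 941, 833 and 743 induced. Its other probe sets gave smaller differences of the same sign, -0.45 and -0.13, and with the mean of the 3 or with a pseudocount of 100 Cfl2 stood at -0.54 and -0.98, short of 2-fold. Over all 29 literature targets tested, 2 were higher (Nrp1 and Flt1) and Cfl2 was lower, against 1.36% and 0.33% of all genes. The median was 0.03, beside 0.55 for untreated day 5 minus untreated day 4 and -0.53 for induced minus untreated on day 5. In that day 5 comparison Nrp1 stood at -1.26 and Flt1 at 0.72. Zeb1 and Zeb2 stood at -0.48 each, and the levels of Zeb2 were 43.7, 97.6 and 237 without and 24.8, 32.7 and 55.9 with induction. Bmi1 stood at 0.14 and Cdh11 at -0.09.

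The other 6, apart from Dppa2 named after their values were seen, were H3f3b, Snhg3, Bcat1, Car3, Crmp1 and Dppa2. H3f3b, a histone H3.3 gene, read 248, 650 and 206 untreated and 246, 599 and 110 induced, by a single probe set. It had the largest lower difference of any tested gene, -2.13, and both treatments peaked on day 4. Snhg3, a host gene of small nucleolar RNAs, read 2907, 1295 and 1083 on untreated day 4, untreated day 5 and induced day 5, and Bcat1, an aminotransferase gene for branched-chain amino acids, 1201, 543 and 444. Both were close to untreated day 5.

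Untreated day 3 and induced day 4 form a second pair at the same lag of 1 day and share no array with the first. In that pair 130 genes were at least 2-fold higher (1.3%) and 71 lower (0.71%). Of the 136 higher genes of the first pair, 30 were also 2-fold higher in the second, 22.1% of the first list and 23.1% of the second, and 115 had the same sign. Of the 33 lower genes, 8 were 2-fold lower in both, 24.2% of the first list and 11.3% of the second, and 28 had the same sign. Of the 76 above the untreated range 24 were 2-fold higher in both, and of the 59 genes between untreated days 4 and 5, 6 were. Krt8 stood at 2.05 in the second pair, Krt19 at 2.55, S100a6 at 2.01 and Cer1 at 2.34, whereas Foxa1 stood at 0.40 and Usp18 at 0.42.

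**Figure D4:**
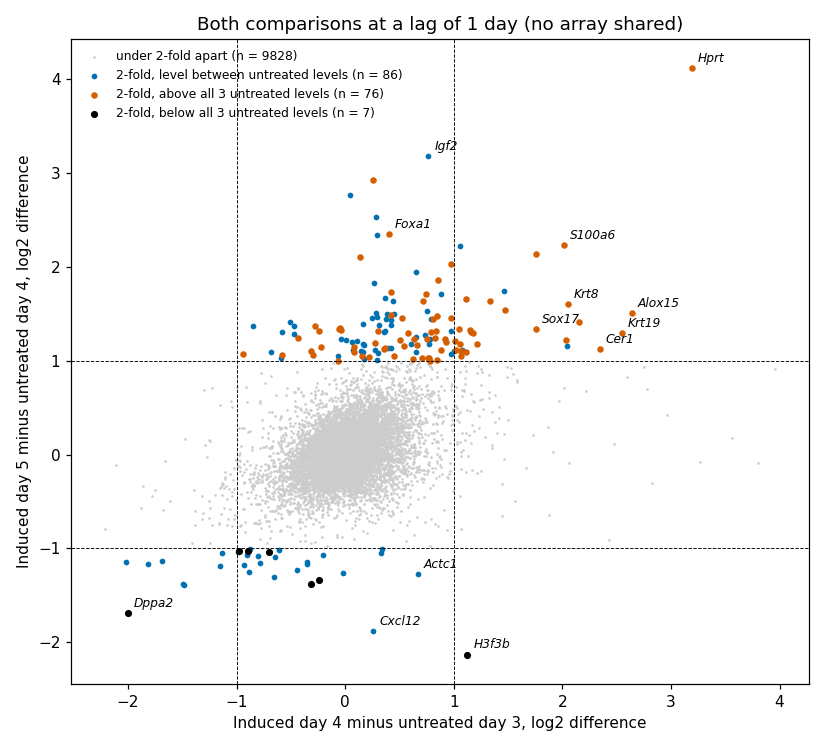
Log2 difference of every tested gene between induced day 4 and untreated day 3 (horizontal) and between induced day 5 and untreated day 4 (vertical), with dashed lines at 2-fold and colours as for the position of the induced day 5 level. Hprt, S100a6, Krt8, Krt19, Alox15 and Cer1 lie beyond 2-fold in both, Igf2 and Foxa1 only on the vertical axis, and H3f3b lies at 1.12 and -2.13.

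Neither pair had a replicate culture, so the spread between them is a difference between days and does not measure variation between cultures. Taking both pairs as repeats, limma called 122 genes higher (1.22%) and 47 lower (0.47%) at an adjusted p under 0.05 over all genes. With 1 residual degree of freedom beside 6.27 prior ones, these calls lean on the shared variance, and with no intensity trend in the prior 0 genes were called, although 1740 had an unadjusted p under 0.05 with it. Without the filter on low levels 16 genes were called, and with the mean of a gene's probe sets 12. Among the called genes the largest mean differences were those of Hprt (3.65 ± 0.21, SE, adjusted p = 0.0023), S100a6 (2.12 ± 0.14, adjusted p = 0.0023) and Alox15 (2.07 ± 0.25, adjusted p = 0.019). They were followed by Iigp1 (1.94), Krt19 (1.92), Krt8 (1.83), Dkk1 (1.78), Cer1 (1.73), Tnnc1 (1.64) and Dsp (1.63). Among the lower ones were Dppa2 (-1.84 ± 0.14, adjusted p = 0.0048), Tcf15 (-1.58) and Gdf3 (-1.49). Every call compares induced arrays with untreated arrays of the preceding day, and these genes were near the untreated level of the same day. Tcf15 read 1145, 234 and 72.6 untreated and 1173, 244 and 78.5 induced. Gdf3 read 1330, 318 and 99.4 untreated and 1137, 343 and 114 induced. Of the 122 higher genes 84 had an induced day 5 level above all untreated ones, and of the 47 lower genes 13 had one below them. Foxa1 did not pass (adjusted p = 0.15), nor did Usp18 (0.15), Neat1 (0.21), Igf2 (0.098) or Aplnr, an early mesoderm gene with a mean difference of 2.44 (0.098).

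Over all tested genes the induced day 5 array correlated with untreated day 4 at r = 0.979, with untreated day 5 at 0.973 and with untreated day 3 at 0.930, as a description across genes. The distance from the untreated series, as the root mean square log2 difference over genes, was 0.624 at day 3, 0.338 at day 4 and 0.393 at day 5. On straight lines between the untreated days it was least at day 4.42 (0.267). Induced day 4 was nearest to untreated day 3.72 (0.192, against 0.366 at day 3). A point between 2 arrays averages their noise and so lies nearer to any array. The median absolute difference placed induced day 5 at day 4.64. Against the profile at day 4.42, 66 genes were at least 2-fold higher and 15 lower, of which 46 and 5 were also 2-fold in that direction from untreated day 4 itself. They were led by Hprt, Defa31, Iigp1 (2.27), S100a6 (1.97), Neat1 and Alox15 (1.87) on the high side and by H3f3b (-1.52), Hbb-bh1 (-1.39), Hoxb2 (-1.15) and Cfl2 (-1.15) on the low side.

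**Figure D5:**
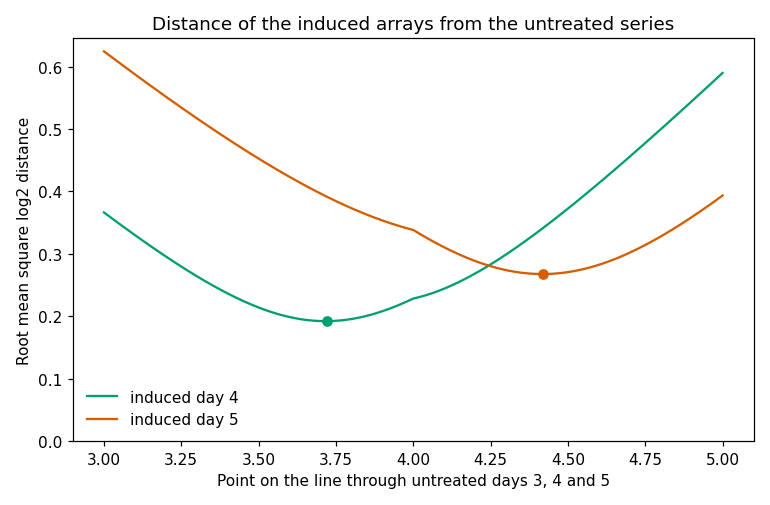
Root mean square log2 distance over the tested genes of the induced day 4 (green) and induced day 5 (orange) arrays from points on the straight lines joining untreated days 3, 4 and 5. The dots mark the nearest points, day 3.72 for induced day 4 and day 4.42 for induced day 5.

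For context, untreated day 5 had 294 genes at least 2-fold above untreated day 4 (2.94%) and 200 below (2%), and induced day 5 had 197 genes above untreated day 5 (1.97%) and 152 below (1.52%). Both comparisons share an array with the comparison described here. List medians in them stood side by side as follows. Epithelial genes were at -0.57 for untreated day 5 minus day 4 and 1.15 for induced minus untreated on day 5. BMP response genes were at 1.38 and -0.85, and primitive ectoderm genes at -2.01 and 1.64.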

How the data were processed

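Total RNA of A2.miR200c cultures was hybridised to 6 Affymetrix MOE430 2.0 arrays, 1 for each treatment and day. The authors normalized and modelled the arrays in DNA-Chip Analyzer (dChip), and the deposited values are model-based intensities on a linear scale. The version and settings of dChip are not given in the sources used here, and no detection calls came with the values. Precision is limited by the number of arrays. The arrays had median intensities of 34.5 to 36.9 and 48.8 to 50.1% of their probe sets above background.

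Of 45037 probe sets, 34945 carried a single gene symbol in the platform annotation, 932 several and 9160 none; only the first were used. Each gene was read from its probe set of highest mean on all 6 arrays, giving 18193 genes. Intensities were taken as log2(intensity + 50), so folds are on that scale and understate the change of low genes. The 9997 genes whose highest value reached the median of 80.1 were tested. Background was the 95th percentile of 78 genes for smell, pheromone and taste receptors, 36.7. Of the 169 genes 2-fold apart, 153 exceeded it on both arrays, 14 higher ones were below it on untreated day 4 and 2 lower ones on induced day 5. Of the 169, 82 had a single probe set, and of the 72 with another above background, 61 had all others of the same sign and 34 had another 2-fold apart. Brachyury matched no probe set under its symbol and was not analysed here.

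Differences between single arrays were counted at 2-fold with no test. The pairs induced day 5 with untreated day 4 and induced day 4 with untreated day 3 were fitted in limma 3.58.1 (R 4.3.3) with pair as a factor, eBayes with trend and p-values, two-sided, adjusted by Benjamini-Hochberg with a threshold of 0.05. The spread there is the difference between the pairs, which differ in day. Scripts were tested on simulated data. Other analyses used Python 3.11.15, numpy 2.4.6 and pandas 2.3.3.

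The comparison, gene lists and tests were chosen with earlier results of these data known. The rule for named genes took up to 12 genes each way at least 2-fold outside the untreated levels, 5 each way within each stretch between untreated days, 4 of each of the 26 lists, the 10 each way with the largest mean difference in limma, and 28 genes of the study. Genes outside it were chosen after their values were seen: Ap1m2, Cldn4, Dsg2, Epcam, Esrp1, Gsc, Lhx1, Mixl1, Eomes, Kit, Kitl, Ddx4, Ldhb, Anxa1, Sbsn, those beside the 2-fold threshold or below the untreated range other than Cfl2 and Dppa2, Fosl2, Serpinb9, and the interferon genes other than Iigp1, Usp18 and B2m. Alternatives were other pseudocounts, quantile normalization, the mean of probe sets, a background floor, other filters and no intensity trend.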

Additional observations from a re-analysis of the deposited data

Results flagged for a closer look

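H3f3b was the only tested gene that was 2-fold or more apart in opposite directions in the 2 pairs at a lag of 1 day. Induced day 5 minus untreated day 4 was -2.13 and induced day 4 minus untreated day 3 was 1.12 on the log2 scale, from 1 array each, and the difference between them was not tested. The gene read 248, 650 and 206 on untreated days 3, 4 and 5 and 246, 599 and 110 on the induced days, so both treatments had their highest level on day 4. It was read by a single probe set.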

How the results depend on the processing

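Under every alternative in which they were computed, the list medians kept their sign except that of germ cell genes, 0.13, which was -0.0044 with the mean of probe sets, and that of feeder fibroblast genes, 0.53, which was 0 with a background floor. The named genes that were 2-fold apart kept their sign. Counts were less stable. A pseudocount of 16 gave 59 lower genes, and one of 100 gave 17 lower, 15 at least 2-fold above and 0 below all untreated levels, with 79 higher and 28 lower limma calls. The mean of probe sets gave 84 higher genes, 0 below all untreated levels, and 10 higher and 2 lower limma calls. Quantile normalization gave 213 higher and 87 lower limma calls. Limma called 0 genes either way with a background floor and with no intensity trend, 11 higher and 5 lower with no filter, and 81 higher with a filter on the mean. The limma counts therefore depend on these settings, and the cause was not tested. Against untreated days 4 and 5 only, 2 genes were at least 2-fold below. The median absolute difference moved the nearest untreated day to 4.64, and the other 5 alternatives gave 4.37 to 4.42. Of the 169 genes, 110 were 2-fold in the same direction with the mean of probe sets, 111 with a pseudocount of 100 and 165 with quantile normalization, and of the 24 genes 2-fold above the untreated range 17, 15 and 21 were. Of 61 named genes that were 2-fold apart, 12 were not with the mean of probe sets: Tmprss2 (0.89), Dsc2 (0.96), Apcdd1 (0.96), Flt1 (0.94), Col5a1 (0.91), Msx2 (0.85), Col1a1 (0.75), Bmp5 (0.72), Tbx3 (0.59), Foxf1 (0.56), Gdf3 (-0.72) and Cfl2 (-0.54). Neat1 was 1.02 and Igf2 1.67 there. With a pseudocount of 100, 13 of the 61 fell short, and with a background floor 3. No paired analysis was possible because each group had 1 array and the labels give no replicate numbers; limma paired arrays by lag only. Replicates could not be left out for the same reason. Low intensity limits the folds of genes below background on either array.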
